A study of Mus musculus with 30 samples.

Results

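Transcripts of 34 genes of fatty acid oxidation and lipid droplets were followed in macrophages grown from the bone marrow of C57BL/6 mice. The genes were chosen by name, by their place in these pathways, out of 43629 gene IDs in the count tables, and all 34 were found. Culture was with CSF-1, the growth factor of macrophages, at 20 ng/mL, to day 7. In the first experiment, wild type cells in groups of 3 libraries were left unstimulated or given 1 of 3 stimuli. These were IL-4 (20 ng/mL) alone, IL-4 together with PGE2 (prostaglandin E2, 10 µM), and IL-4 together with valinomycin (a potassium ionophore, 10 nM). In the second experiment, cells exposed to lentivirus with a control short hairpin RNA (control shRNA) or with one against the ETS family transcription factor Etv1 (Etv1 shRNA) were unstimulated or received IL-4, or IL-4 with PGE2, at the same doses, again in groups of 3 libraries. All groups thus shared the CSF-1 culture, and both hairpin arms shared the viral transduction. The labels do not give a stimulation time, name each hairpin arm without a hairpin sequence, and call the control shRNA libraries wild type in their titles. Nothing in them ties replicates to separate mice or cultures. A p-value here therefore sets a difference between groups only against the spread of these libraries, which may be a technical spread. The study asked how the mitochondrial membrane potential, which PGE2 and valinomycin both change, bears on nuclear gene expression, and what part Etv1 has in it.

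Long-chain fatty acids are activated to acyl-CoA by the Acsl enzymes, handed to carnitine by Cpt1a at the outer mitochondrial membrane, carried inward by Slc25a20 and returned to CoA by Cpt2. Acyl-CoA dehydrogenases, hydratases, hydroxyacyl-CoA dehydrogenases and thiolases then shorten the chain round by round, and the electrons pass through electron transfer flavoprotein to the respiratory chain. Fatty acids come in part from triglyceride in lipid droplets, which Plin proteins coat and which Pnpla2, Lipe and Mgll hydrolyse in turn, with Abhd5 as the activator of Pnpla2 and Hilpda as its inhibitor. In macrophages, IL-4 is known to raise oxidative metabolism, and lipid droplets are also a store of arachidonic acid, the precursor of PGE2.

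Library totals were 10514496 to 13414293 counts for wild type cells and 6924973 to 30473040 for shRNA cells, and the members together took 0.278% to 0.380% and 0.297% to 0.390% of them. Levels are given as CPM, counts scaled to library size, comparable within an experiment only. Etv1, the targeted gene, was at 10.9, 10.3 and 10.5 CPM in unstimulated control shRNA cells and at 4.84, 2.51 and 2.97 CPM with Etv1 shRNA (log2 fold change -1.69 ± 0.20 (SE), adjusted p = 1.16e-06). The hairpin groups stayed apart under IL-4 (-1.39) and under IL-4 with PGE2 (-1.67). In wild type cells Etv1 rose from 12.7–14.3 CPM under IL-4 to 28.9–30.6 CPM with PGE2 (log2 fold change 1.14 ± 0.09 (SE), adjusted p = 1.04e-10) and was not called with valinomycin (-0.01). The 8 macrophage markers were detected in both experiments, and their summed level was 14362 to 19083 CPM in wild type cells. Adipocytes, the cells best known for droplets, left little trace: their 6 markers summed to at most 1.92 CPM in wild type and 1.47 CPM in shRNA libraries, and Plin1, the droplet coat of adipocytes, had at most 0.0733 CPM in any library. The 8 neutrophil markers summed to 212 to 342 CPM in wild type libraries and to 0 to 2.46 CPM in shRNA libraries.

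The members were expressed at very different levels for their length. In wild type cells under IL-4, Plin2, the main droplet coat protein of macrophages, had 251 ± 23.6 CPM per kilobase of exon (SD, n = 3). The next members were Etfb with 54.9 ± 5.11, Acsl5 with 43.8 ± 1.98 and Pnpla2 with 39.9 ± 1.60 CPM per kilobase, whose ranges lay far below that of Plin2. Acsl3 with 2.56 ± 0.399, Lipe with 2.81 ± 0.0949 and Mgll with 2.91 ± 0.478 CPM per kilobase were the lowest. Plin2 alone thus stood apart from the other 33 members in these libraries.

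Upstream sequences are shown for the 4 members that moved most with PGE2 in wild type cells: Hilpda and Acsl4, which rose, and Mgll and Abhd5, which fell. Each is the 250 bases before the RefSeq gene start on GRCm38.p6, printed 5′ to 3′ on the gene's strand. The last 8 bases for Abhd5 lie inside the gene as GENCODE annotates it. Capitals mark matches, on either strand, to TGACG (the half-site of the cyclic AMP response element, also printed as CGTCA) and to ACGTG or GCGTG (cores of hypoxia response elements, also printed as CACGT or CACGC).
Hilpda, chr6:29272238-29272487, plus strand: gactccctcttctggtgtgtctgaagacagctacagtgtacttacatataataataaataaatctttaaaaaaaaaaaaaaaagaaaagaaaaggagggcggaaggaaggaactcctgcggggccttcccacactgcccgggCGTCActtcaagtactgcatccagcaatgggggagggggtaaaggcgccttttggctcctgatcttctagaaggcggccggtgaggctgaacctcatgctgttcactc
Acsl4, chrX:142390536-142390785, minus strand: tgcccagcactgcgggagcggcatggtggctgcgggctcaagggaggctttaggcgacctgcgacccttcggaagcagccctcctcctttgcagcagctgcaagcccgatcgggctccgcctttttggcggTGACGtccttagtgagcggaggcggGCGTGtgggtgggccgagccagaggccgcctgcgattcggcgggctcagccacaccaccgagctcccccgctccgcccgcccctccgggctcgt
Mgll, chr6:88724162-88724411, plus strand: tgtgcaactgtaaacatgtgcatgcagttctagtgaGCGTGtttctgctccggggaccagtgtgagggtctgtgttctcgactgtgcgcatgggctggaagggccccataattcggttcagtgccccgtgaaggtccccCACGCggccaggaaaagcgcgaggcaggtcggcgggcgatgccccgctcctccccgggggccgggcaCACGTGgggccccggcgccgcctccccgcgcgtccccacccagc
Abhd5, chr9:122351366-122351615, plus strand: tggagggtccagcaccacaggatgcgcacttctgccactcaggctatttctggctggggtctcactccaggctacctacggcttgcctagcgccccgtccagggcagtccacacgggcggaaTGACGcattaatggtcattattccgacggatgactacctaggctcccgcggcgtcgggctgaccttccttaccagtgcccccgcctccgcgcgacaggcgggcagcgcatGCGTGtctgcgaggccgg

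TGACG or its complement stood in 17.8% of 32851 RefSeq windows of this length and in the windows of 7 of the 30 members that had one: Abhd5, Acadm, Acox3, Acsl4, Etfa, Etfdh and Hilpda. Both Abhd5, which fell with PGE2, and Acsl4 and Hilpda, which rose, were among them. The 6-base run CACGTG in the Mgll window counts as ACGTG on both strands, a match found in 16.6% of all windows and in 3 members (Acadvl, Lipe and Mgll). GCGTG was in 28.2% of all windows and in 17 of the 30 members. CCGGAA, a core bound by ETS factors, was in 12.03% of all windows and in 6 members, Acox3, Cpt2, Crot, Etfdh, Lipe and Slc25a20. The direct repeat of AGGTCA with a single spacer base, the kind of site that PPAR receptors bind, was in 0.03% of all windows and in 0 of the 30. A match is a description of these letters and not a measured binding site.

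IL-4 alone moved few of these genes far in wild type macrophages. Of the 34 members, 9 rose and 6 fell at an adjusted p under 0.05 (44.1%, where 46.4% of the 12824 genes tested were called, 24% higher and 22.4% lower). The median log2 fold change of the members was 0.04 and that of all genes 0.01. Only Acsl3 changed by at least 1 on the log2 scale, and 12 of the 15 called members changed by under 0.5. As these are bulk libraries, fewer cells with a transcript and less of it per cell cannot be told apart.

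Acsl3, which activates fatty acids at the endoplasmic reticulum and on new droplets, had 22.2, 22.5 and 25.4 CPM in the 3 unstimulated libraries and 9.42, 11.2 and 12.9 CPM with IL-4. The groups did not overlap, and the level fell 2.09-fold (log2 fold change -1.07 ± 0.11 (SE), adjusted p = 1.86e-08). Acsl4, which prefers arachidonic acid, fell from 85.6–99 CPM to 63.9–75.5 CPM (log2 fold change -0.40 ± 0.07 (SE), adjusted p = 5.1e-05). Acox3, a peroxisomal oxidase of branched acyl-CoA, fell from 153–166 CPM to 106–119 CPM (log2 fold change -0.53 ± 0.06 (SE), adjusted p = 2.57e-08).

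On the droplet side, Plin2 had 1360, 1369 and 1329 CPM without stimulus and 832, 837 and 978 CPM with IL-4, so every IL-4 library was below every unstimulated one (log2 fold change -0.62 ± 0.09 (SE), adjusted p = 0.000138). Abhd5 fell from 76.6–77.2 CPM to 52.6–61.6 CPM (log2 fold change -0.46 ± 0.06 (SE), adjusted p = 9.45e-07), whereas Pnpla2, the lipase that Abhd5 activates, rose from 94.2–104 CPM to 116–125 CPM (log2 fold change 0.27 ± 0.05 (SE), adjusted p = 0.00018). Lipe, a diglyceride lipase, had 16.0–17.1 CPM against 15.3–16.4 CPM and was not called (adjusted p = 0.472). Hilpda had 19.7, 29.4 and 24.3 CPM with IL-4 and 16.1, 14.6 and 10.7 CPM without it. Its groups did not overlap, and its change was not called (log2 fold change 0.84 ± 0.35 (SE), adjusted p = 0.0815), though the fit to these 6 libraries alone and DESeq2 did call it.

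In the mitochondrial pathway the rises were small and spread over several steps. Acadm, the medium-chain dehydrogenase, rose from 78.1–81.3 CPM to 93.5–96.2 CPM (log2 fold change 0.25 ± 0.05 (SE), adjusted p = 0.000315), and Acads, its short-chain relative, from 48.1–55.1 CPM to 58.0–61.7 CPM (log2 fold change 0.23 ± 0.06 (SE), adjusted p = 0.00236). Acsl5 rose by 0.21, Etfb by 0.25, Etfa by 0.17, Hadhb by 0.21, Cpt2 by 0.23 and Eci1 by 0.31 on the log2 scale. Eci1, an isomerase for unsaturated acids, was not called without IL-4 replicate 3 (adjusted p = 0.06). With DESeq2 the rises of Cpt2 (adjusted p = 0.0646), Eci1 (0.053) and Etfa (0.0531) were not called. That of Etfa was also lost in edgeR without a filter on low counts (0.0558). Cpt1a, the entry enzyme of the carnitine shuttle, went the other way, with 202, 197 and 190.5 CPM without stimulus and 166, 144 and 182 CPM with IL-4 (log2 fold change -0.26 ± 0.07 (SE), adjusted p = 0.00642). Acadl, the long-chain dehydrogenase, had 76.3–80.2 CPM and 70.4–77.2 CPM, and its groups overlapped (adjusted p = 0.153).

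PGE2 on top of IL-4 moved many more of them, mostly downward. In wild type cells 7 of the 34 members rose and 18 fell, 73.5% in all, where 59.4% of all genes tested were called, 29.9% higher and 29.5% lower. The median of the members was -0.17 and that of all genes 0.01 on the log2 scale. Among the 5 enzymes of the later steps of a round of oxidation, Hadhb, Hadh, Echs1 and Acaa2 fell and Hadha was not called. Of the 4 acyl-CoA dehydrogenases 3 fell, and Acadvl, the very-long-chain enzyme, was not called (0.10 ± 0.05, adjusted p = 0.109). None of the 3 peroxisomal genes was called in the main fit to all 12 libraries or by DESeq2. The log2 fold change was -0.10 for Acox3, 0.12 for Hsd17b4 and 0.15 for Acaa1a, the peroxisomal thiolase, the latter 2 at an unadjusted p under 0.05. With the replicate number as a block, Acaa1a was called (adjusted p = 0.0472). Leaving out 1 library could bring a call for Acaa1a (adjusted p = 0.00662 without IL-4 replicate 2) and Hsd17b4 (0.0252 without IL-4 replicate 1). The lipases and droplet proteins were called in every case, 2 upward and 5 downward.

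**Figure D1:**
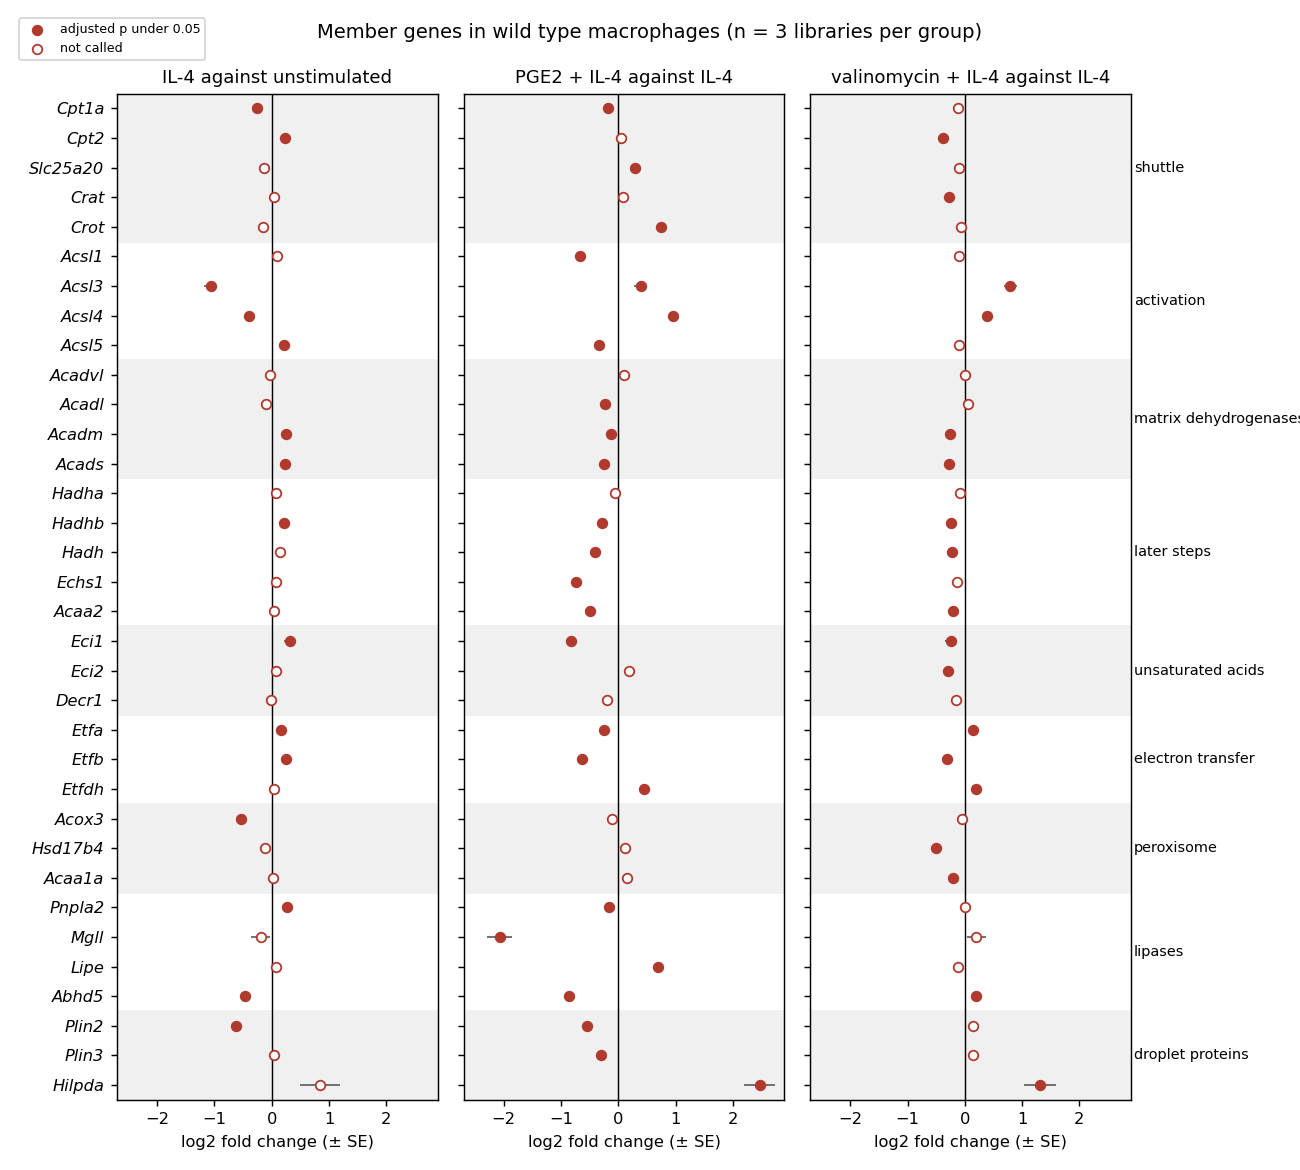
Log2 fold change (horizontal axis, ± SE) of the 34 members, grouped by role, for IL-4 against no stimulus, PGE2 with IL-4 against IL-4 and valinomycin with IL-4 against IL-4 in wild type macrophages. Filled points passed an adjusted p under 0.05; with PGE2, Hilpda stands far to the right and Mgll far to the left, and most filled points of the mitochondrial enzymes lie left of 0.

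Echs1, the short-chain enoyl-CoA hydratase, had 75.1, 90.4 and 79.8 CPM under IL-4 and 47.9, 51.6 and 48.0 CPM with PGE2, a drop that left the groups well apart (log2 fold change -0.74 ± 0.07 (SE), adjusted p = 1.07e-09). Eci1 fell from 15.9–18.4 CPM to 9.05–10.3 CPM (log2 fold change -0.82 ± 0.10 (SE), adjusted p = 2.04e-07). Etfb, the beta subunit of electron transfer flavoprotein, had 59.0, 70.5 and 62.3 CPM and 42.9, 43.0 and 38.4 CPM (log2 fold change -0.62 ± 0.07 (SE), adjusted p = 7.39e-08). Its partner subunit Etfa fell by 0.25, whereas Etfdh, the dehydrogenase that passes the electrons on to ubiquinone, rose from 41.1–47.2 CPM to 58.1–61.4 CPM (log2 fold change 0.44 ± 0.06 (SE), adjusted p = 8.54e-07). The 3 genes of electron transfer thus did not move together.

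Falls were also called for Acaa2, the mitochondrial thiolase (log2 fold change -0.49), for Hadh, the hydroxyacyl-CoA dehydrogenase for shorter chains (-0.41), and for Acads (-0.25). Acadl had 73.0, 77.2 and 70.4 CPM under IL-4 and 60.3, 63.6 and 63.8 CPM with PGE2, and the groups did not overlap (log2 fold change -0.23 ± 0.05 (SE), adjusted p = 0.000785). Cpt1a had 149, 133 and 152 CPM with PGE2, next to the IL-4 values above. Its groups overlapped, and its call (log2 fold change -0.18 ± 0.07 (SE), adjusted p = 0.0441) was lost when any of 4 libraries was left out (adjusted p up to 0.247, without IL-4 replicate 3). The call of Acadm (-0.14 ± 0.05, adjusted p = 0.0261) was lost without any of 4 libraries too (up to 0.167, without PGE2 replicate 1).

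Hadha and Hadhb encode the subunits of the mitochondrial trifunctional protein, which carries out the last 3 reactions of a round on long chains. They lie head to head on chromosome 5, Hadha (ENSMUSG00000025745, chr5:30118304-30155162, minus strand) and Hadhb (ENSMUSG00000059447, chr5:30155248-30184593, plus strand), with 85 bases between the annotated genes. That gap is shown because both genes start from it.
Gap between Hadha and Hadhb, chr5:30155163-30155247, plus strand: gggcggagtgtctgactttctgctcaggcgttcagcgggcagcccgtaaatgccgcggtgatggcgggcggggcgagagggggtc

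This gap was 69.4% G or C and held none of the 5 motifs searched. Hadha had 163, 151 and 154 CPM under IL-4 and 147, 156 and 146 CPM with PGE2, and was not called (log2 fold change -0.06 ± 0.05 (SE), adjusted p = 0.296). Hadhb had 69.8, 65.7 and 62.7 CPM and 56.6, 53.3 and 52.7 CPM, and fell (log2 fold change -0.28 ± 0.06 (SE), adjusted p = 0.000167). The difference between the responses of the pair was not itself tested.

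Activation and the shuttle held both rises and falls. Acsl4 (ENSMUSG00000031278, chrX:142317993-142390535, minus strand) had 75.5, 63.9 and 67.6 CPM under IL-4 and 126, 134 and 144 CPM with PGE2, so the PGE2 libraries were all above the unstimulated range as well (log2 fold change 0.96 ± 0.07 (SE), adjusted p = 7.46e-11). Acsl3 rose by 0.39 (adjusted p = 0.00675). Acsl1, which serves both oxidation and triglyceride synthesis, fell from 49.96, 51.8 and 57.0 CPM to 34.4, 31.4 and 34.4 CPM (log2 fold change -0.67 ± 0.07 (SE), adjusted p = 2.48e-08), and Acsl5 fell by 0.33. Crot, the peroxisomal carnitine octanoyltransferase, rose from 48.0–58.5 CPM to 80.5–91.3 CPM (log2 fold change 0.74 ± 0.07 (SE), adjusted p = 2.44e-09), and the carrier Slc25a20 by 0.29. Cpt2 (0.04) and Crat (0.09) were not called, nor were Decr1 (-0.19) and Eci2 (0.19), which act on unsaturated acids. Decr1 was called without any of 3 libraries (down to 0.0301, without IL-4 replicate 1) and Eci2 without IL-4 replicate 2 (0.0183).

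The widest movements were at the droplet. Hilpda (ENSMUSG00000043421, chr6:29272488-29275446, plus strand) had 19.7, 29.4 and 24.3 CPM under IL-4 and 117, 116 and 178 CPM with PGE2, 5.55-fold higher (log2 fold change 2.47 ± 0.27 (SE), adjusted p = 4.92e-05), and 1 PGE2 library lay well above the other two. Mgll, the monoglyceride lipase (ENSMUSG00000033174, chr6:88724412-88828360, plus strand), had 14.1, 17.5 and 12.7 CPM under IL-4 and 3.53, 2.66 and 4.47 CPM with PGE2, 4.19-fold lower (log2 fold change -2.07 ± 0.22 (SE), adjusted p = 7.07e-07). Its PGE2 libraries were far below all 9 others, which held 12.7 to 21.3 CPM. Neutrophil markers summed to 281 to 321 CPM in the IL-4 libraries and to 260 to 342 CPM in the PGE2 libraries, and their part in the level of Mgll was not tested.

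Abhd5 (ENSMUSG00000032540, chr9:122351608-122381524, plus strand) had 53.6, 52.6 and 61.6 CPM under IL-4 and 30.7, 32.4 and 29.1 CPM with PGE2, the smallest adjusted p among the falls (log2 fold change -0.86 ± 0.07 (SE), adjusted p = 9.81e-11). Pnpla2 fell slightly, from 116, 125 and 121 CPM to 111, 108 and 104 CPM (log2 fold change -0.17 ± 0.05 (SE), adjusted p = 0.00883). Lipe rose in contrast, from 16.0, 17.1 and 16.4 CPM to 26.1, 27.4 and 27.0 CPM (log2 fold change 0.70 ± 0.08 (SE), adjusted p = 3.76e-08). The 4 genes of lipolysis therefore split, with the diglyceride lipase up and the other 3 down. Plin2 had 600, 535 and 689 CPM with PGE2 against the IL-4 values above, a further drop (log2 fold change -0.54 ± 0.09 (SE), adjusted p = 0.000306), and Plin3, a coat of small droplets, fell by 0.30. Genes on the opposite strand overlap exons of 13 members, among them 950 exon bases of Abhd5, 918 of Lipe, 167 of Mgll and 1151 of Acadvl. The others are Acox3 (700), Crat (470), Acsl5 (404), Acaa1a (290), Etfdh (278), Eci2 (189), Crot (166), Echs1 (142) and Hadha (75). The use of strand in counting is not stated, so reads of overlapping genes may be mixed. Genes on the same strand overlap exons of 3 members, Acsl3 (244 bases), Etfb (61) and Crot (39), which strand use would not separate.

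**Figure D2:**
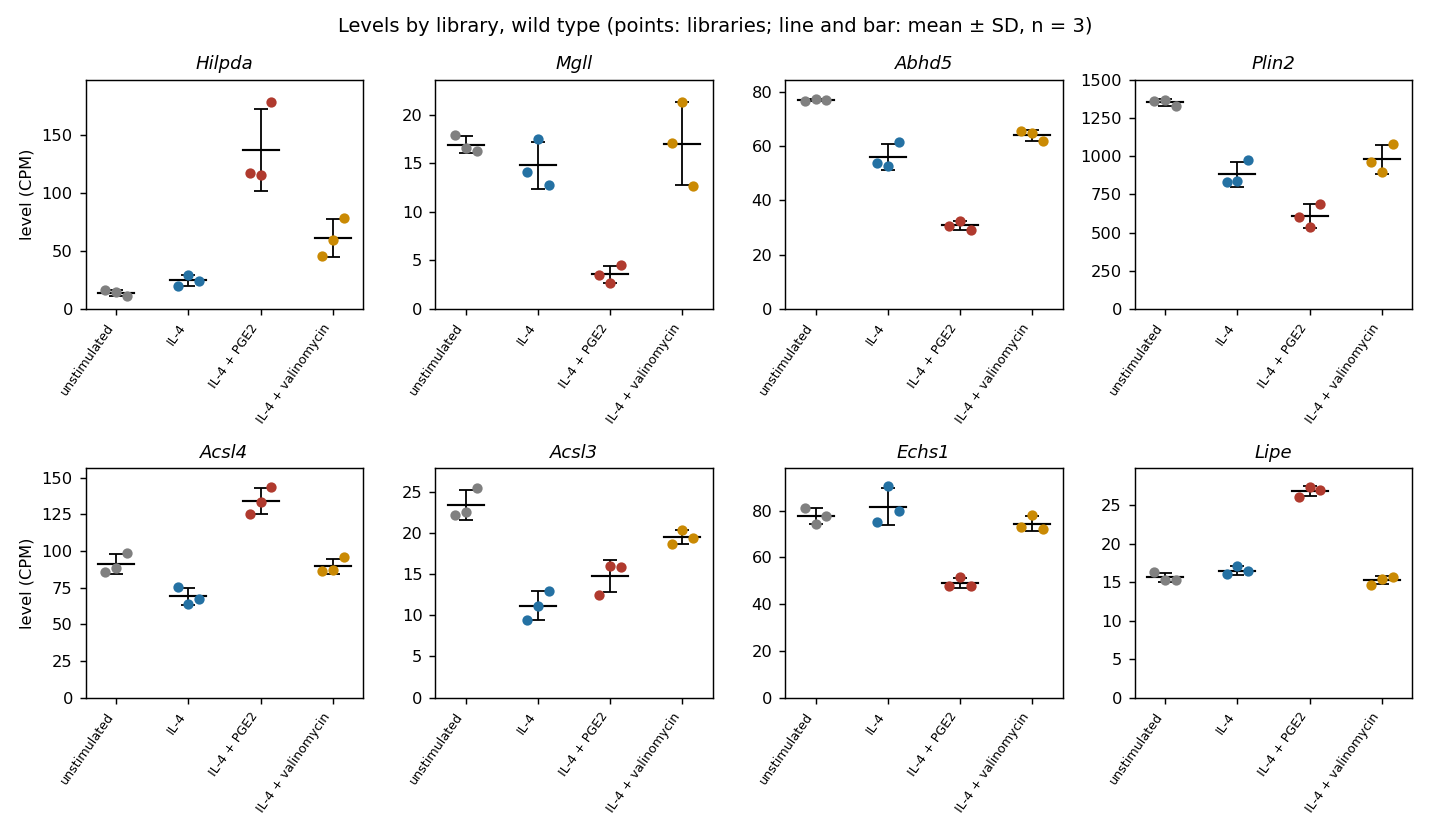
Level in CPM (vertical axes from 0) of 8 members in each wild type library, with the group mean ± SD (n = 3). Hilpda, Acsl4 and Lipe are highest with PGE2, Mgll, Abhd5 and Plin2 lowest, and Acsl3 is highest without stimulus.

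Valinomycin on top of IL-4 gave smaller changes. Of the 34 members, 6 rose and 12 fell (52.9%, where 38.4% of all genes were called, 19.4% higher and 18.9% lower), and 10 of the 18 calls held when each library was left out in turn. Without IL-4 replicate 2 the count of calls was 13. The median of the members was -0.10 and that of all genes -0.03. Only Hilpda changed by at least 1 on the log2 scale.

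Hilpda had 45.6, 59.6 and 77.9 CPM with valinomycin, above all IL-4 libraries and below all PGE2 libraries (log2 fold change 1.31 ± 0.28 (SE), adjusted p = 0.00643). Acsl3 had 18.6, 20.4 and 19.4 CPM, between its IL-4 and unstimulated ranges (log2 fold change 0.80 ± 0.11 (SE), adjusted p = 5.37e-06), and Acsl4 had 86.6–95.7 CPM (log2 fold change 0.38 ± 0.07 (SE), adjusted p = 0.000162). Hsd17b4, the peroxisomal multifunctional enzyme, fell from 119, 111 and 109 CPM to 81.4, 84.7 and 74.1 CPM (log2 fold change -0.50 ± 0.05 (SE), adjusted p = 1.47e-07). Among shuttle genes, Cpt2 fell from 27.7–28.4 CPM to 20.3–22.9 CPM (log2 fold change -0.39 ± 0.07 (SE), adjusted p = 0.000224) and Crat, carnitine acetyltransferase, from 81.6–87.3 CPM to 67.3–70.1 CPM (log2 fold change -0.28 ± 0.05 (SE), adjusted p = 0.000119). Acadm fell from 93.5–96.2 CPM to 77.7–80.6 CPM (log2 fold change -0.26 ± 0.05 (SE), adjusted p = 0.000294), and falls were also called for Acads (-0.27), Hadhb (-0.24) and Etfb (-0.32).

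Small rises of Etfdh, Abhd5 and Etfa were called and each could be lost by leaving out 1 library: Etfdh 0.19 ± 0.06, adjusted p = 0.0129 (0.0863 without IL-4 replicate 2), Abhd5 0.19 ± 0.06, adjusted p = 0.0158 (0.0879 without IL-4 replicate 2) and Etfa 0.14 ± 0.05, adjusted p = 0.0317 (0.145 without IL-4 replicate 3). The falls of Hadh (-0.23), Acaa2 (-0.20), Eci1 (-0.25), Eci2 (-0.29) and Acaa1a (-0.21) were also each lost without at least 1 library. Several members that PGE2 moved were not called with valinomycin. Cpt1a had 144–162 CPM (adjusted p = 0.232), Acadl 74.0–80.0 CPM (0.5), Plin2 896–1078 CPM (0.234), Pnpla2 115–124 CPM (0.994), Lipe 14.7–15.7 CPM (0.286) and Mgll 12.7–21.3 CPM (0.366). Leaving out 1 library brought a call for Cpt1a (0.0149 without IL-4 replicate 2) and Mgll (0.0305 without valinomycin replicate 3). PGE2 and valinomycin were both set against the same IL-4 libraries, so agreement between those contrasts is no independent evidence.

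The direct comparison of PGE2 with valinomycin, both on IL-4, does not use those shared libraries. With PGE2, 12 members were higher and 15 lower than with valinomycin (79.4%, where 63.2% of all genes were called, 31.7% higher and 31.5% lower). Higher with PGE2 were Crot (log2 fold change 0.81 ± 0.07 (SE), adjusted p = 3.83e-10), Hsd17b4 (0.61 ± 0.05, adjusted p = 9.31e-10), Lipe (0.81 ± 0.08, adjusted p = 2.9e-09), Acsl4 (0.58 ± 0.07, adjusted p = 1.26e-07) and Hilpda (1.16 ± 0.24, adjusted p = 0.00269). Lower with PGE2 were Abhd5 (log2 fold change -1.06 ± 0.07 (SE), adjusted p = 1.62e-12), Echs1 (-0.60 ± 0.07, adjusted p = 3.15e-08), Mgll (-2.26 ± 0.21, adjusted p = 1.55e-07), Acsl1 (-0.57 ± 0.07, adjusted p = 2.54e-07) and Plin2 (-0.69 ± 0.09, adjusted p = 3.43e-05). Pnpla2 (-0.17) and Acadl (-0.28) were also called lower, whereas Cpt1a was not called (-0.06 ± 0.07, adjusted p = 0.467). Between PGE2 and valinomycin, the other 4 shuttle genes, Cpt2, Slc25a20, Crat and Crot, were all higher with PGE2.

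In the shRNA experiment IL-4 raised 12 and lowered 3 of the 33 members tested with control shRNA (45.5%, where 34.3% of 12382 genes were called, 17.2% higher and 17.1% lower), with a median of 0.08. Without IL-4 replicate 3 of the control shRNA 10 were called. Crot rose from 47.8–52.3 CPM to 62.6–73.5 CPM (log2 fold change 0.46 ± 0.06 (SE), adjusted p = 9.45e-06), Hadhb from 39.4–45.3 CPM to 54.1–66.7 CPM (log2 fold change 0.53 ± 0.09 (SE), adjusted p = 5.31e-05), Decr1, the reductase for polyunsaturated acids, from 26.6–30.3 CPM to 35.5–39.1 CPM (log2 fold change 0.39 ± 0.08 (SE), adjusted p = 0.000622) and Etfa from 48.2–54.0 CPM to 58.0–69.2 CPM (log2 fold change 0.32 ± 0.07 (SE), adjusted p = 0.000912). The 3 that fell were Acsl4 (log2 fold change -0.60 ± 0.07 (SE), adjusted p = 1.97e-06), Acox3 (-0.48 ± 0.07, adjusted p = 2.76e-05) and Acsl3 (-0.78 ± 0.17, adjusted p = 0.00141), all of which also fell in wild type. Crot did not rise with IL-4 in wild type, where it was lower and not called (-0.15, adjusted p = 0.0827). That fall was called without a filter on low counts (0.0386) and with the replicate number as a block (0.0495). It was also called without wild type IL-4 replicate 3 (0.00764). Of these 33 members, 6 rose with IL-4 in both wild type and control shRNA cells: Acadm, Acads, Acsl5, Etfa, Etfb and Hadhb. Of all genes tested in both, 13.2% rose in both and 12.4% fell. The wild type changes of Abhd5, Pnpla2 and Cpt1a with IL-4 were not called with control shRNA. There the 3 genes of lipolysis tested ran from -0.20 to 0.08 on the log2 scale. No shuttle gene was called lower, and the lowest value among them was -0.08. Without IL-4 replicate 3 of the control shRNA, the calls there of Acadm (adjusted p = 0.099), Acsl5 (0.0898) and Etfb (0.111) were lost. Plin2 had 1497, 1705 and 1541 CPM without stimulus and 1125, 1641 and 1199 CPM with IL-4. The second of these IL-4 libraries lay within the unstimulated range, and the change was not called (log2 fold change -0.26 ± 0.11 (SE), adjusted p = 0.076), but was without that library (adjusted p = 0.000146).

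With Etv1 shRNA, IL-4 raised 6 and lowered 1 of 33 members (21.2%, where 18% of genes were called, 10.9% higher and 7.16% lower), and 2 were called without the second unstimulated library. Acadm, from 106–112 CPM to 139–141 CPM, was called in every such refit (log2 fold change 0.35 ± 0.05 (SE), adjusted p = 4.64e-05). Abhd5, which fell with IL-4 in wild type, was called higher here (0.28, adjusted p = 0.018). That call was lost without unstimulated replicate 2 (0.117) or IL-4 replicate 3 (0.099) of the Etv1 shRNA. Between the hairpins the IL-4 effect differed for 1 member, Acsl4, where 4.51% of genes were called (2.71% more positive and 1.81% more negative with Etv1 shRNA). Acsl4 fell with control shRNA and had a log2 fold change of -0.09 with Etv1 shRNA (adjusted p = 0.537), a difference of 0.52 ± 0.11, adjusted p = 0.00728. Without IL-4 replicate 2 of the control shRNA the difference was called for 5 members.

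Mgll could not be tested in the shRNA experiment: it had 0 to 4 counts in each of the 18 libraries and 27 in all, with 0 in 5 of them. In wild type libraries it had 31 to 248 counts. Neutrophil markers were also near 0 in the shRNA libraries (above).

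PGE2 on top of IL-4 changed 25 of 33 members with control shRNA, 9 upward and 16 downward (75.8%, where 59.4% of genes were called, 29.3% higher and 30.1% lower). Their median was -0.18 and that of all genes -0.01. In both wild type and control shRNA cells, which share no libraries, 7 members rose (Acsl3, Acsl4, Crot, Etfdh, Hilpda, Lipe and Slc25a20) and 15 fell. Over the 11906 genes tested in both, 21.5% rose in both and 22.3% fell in both. Of the 7 and 15 members, 6 and 12 were called in both whichever single library was left out. The rise of Crot with control shRNA (0.17 ± 0.06, adjusted p = 0.0228) was lost without any of 3 libraries (up to 0.151, without IL-4 replicate 2). Pnpla2 was called in opposite directions, down in wild type (-0.17) and up with control shRNA, from 100.5, 119 and 109.7 CPM to 143, 154 and 145 CPM (log2 fold change 0.43 ± 0.07 (SE), adjusted p = 1.46e-05). Wild type and transduced cells were not compared in 1 model.

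With Etv1 shRNA, PGE2 raised 9 and lowered 10 of 33 members (57.6%, where 47.5% of genes were called, 24.6% higher and 22.8% lower), with a median of 0.03. The PGE2 effect itself differed between the hairpins for 16 of the 33 members, 48.5%, where 11.6% of all genes tested were called (6.03% with a more positive and 5.58% with a more negative effect under Etv1 shRNA). Among 79 further genes of these pathways outside the members, 8 were called (10.1%). The members were chosen with earlier results of these data known, so their share is no test of these pathways. For 14 of the 16 members the effect was closer to 0 with Etv1 shRNA, and Crat and Crot were the exceptions. The effect was likewise closer to 0 for 85.3% of the 1438 genes called, so this share is near that of all genes. Of the 16, 9 fell and 7 rose with control shRNA, and 5 (Cpt1a, Decr1, Hadhb, Plin2 and Pnpla2) were not called with Etv1 shRNA. The hairpin groups also differed in macrophage markers: the 8 summed to 15895 to 21465 CPM with control shRNA and to 8903 to 10386 CPM with Etv1 shRNA, where 1 of the 8 was called higher and 6 lower in unstimulated and IL-4 conditions and 1 and 5 with PGE2. Under IL-4 Lyz2, the lysozyme gene of myeloid cells, averaged 10625 CPM with control shRNA and 3981 CPM with Etv1 shRNA, Csf1r 2517 and 1644 CPM, and Adgre1 1640 and 2827 CPM. The part of such differences in the member results was not tested.

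**Figure D3:**
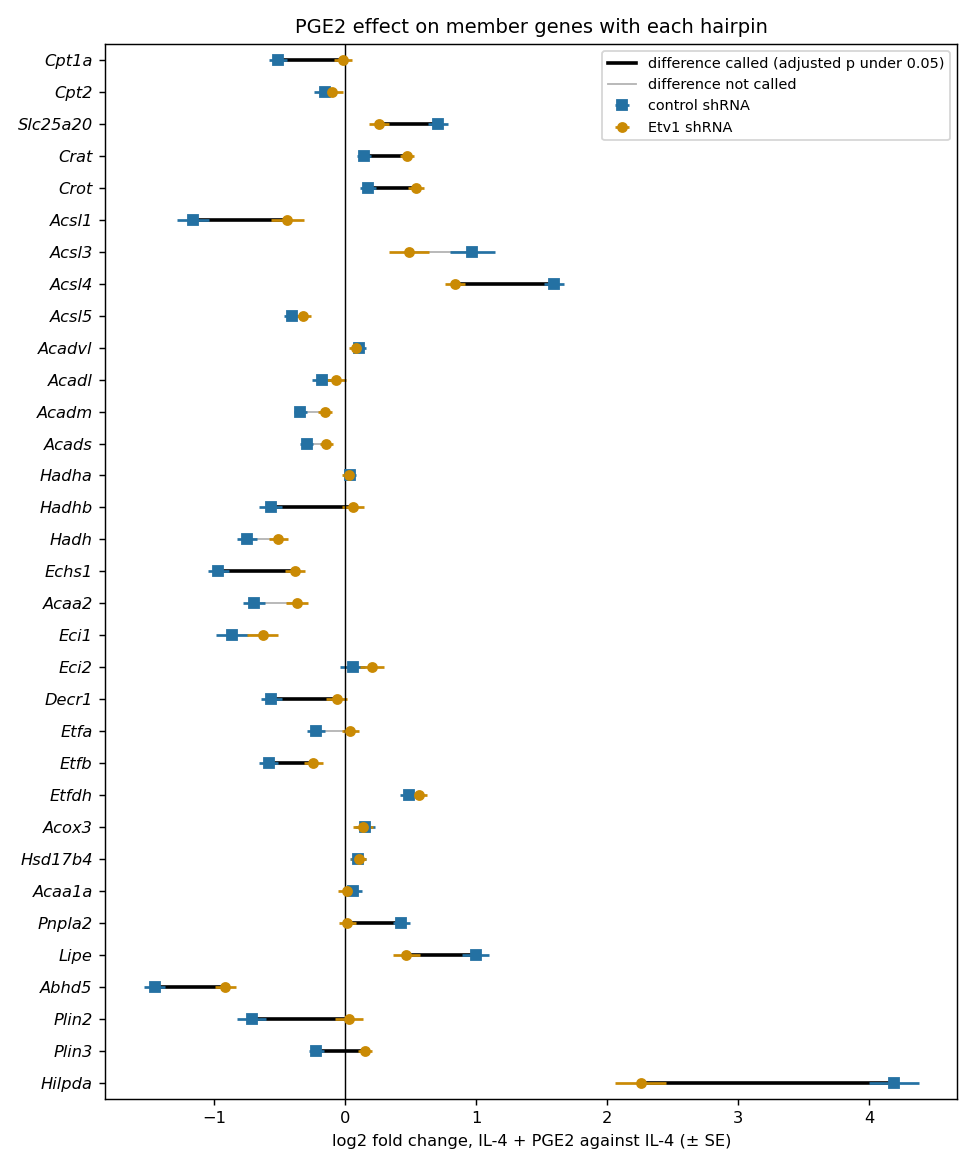
Log2 fold change (horizontal axis, ± SE) of 33 members for IL-4 with PGE2 against IL-4, with control shRNA (squares) and Etv1 shRNA (circles). Thick black lines join the 16 members whose PGE2 effect differed between hairpins, and for 14 of them the circle is nearer to 0.

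Hilpda had the largest difference. With control shRNA it went from 10.5, 15.2 and 10.4 CPM to 175, 286 and 192 CPM (log2 fold change 4.19 ± 0.19 (SE), adjusted p = 7.71e-11), and with Etv1 shRNA from 8.90, 10.5 and 10.3 CPM to 46.1, 50.3 and 46.0 CPM (log2 fold change 2.25 ± 0.20 (SE), adjusted p = 2.68e-07). The starting levels were close, and the levels with PGE2 did not overlap between hairpins. The difference of the effects was -1.94 ± 0.28, adjusted p = 0.000444. Acsl4 rose from 115, 109.8 and 94.6 CPM to 294, 349 and 321 CPM with control shRNA (log2 fold change 1.59 ± 0.07 (SE), adjusted p = 1.25e-12) and from 64.3, 60.4 and 65.0 CPM to 113, 116 and 109.7 CPM with Etv1 shRNA (log2 fold change 0.83 ± 0.08 (SE), adjusted p = 3.57e-08), a difference of -0.76 ± 0.11, adjusted p = 0.000115. Here the starting levels already differed.

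Slc25a20 rose from 31.6, 36.9 and 30.3 CPM to 49.4, 58.9 and 53.1 CPM with control shRNA (log2 fold change 0.71 ± 0.08 (SE), adjusted p = 2.48e-07) and by 0.26 with Etv1 shRNA, the latter lost without IL-4 replicate 3 (adjusted p = 0.0598; difference -0.45 ± 0.11, adjusted p = 0.0115). Lipe went from 17.9, 22.7 and 19.5 CPM to 33.4, 44.7 and 40.6 CPM with control shRNA (log2 fold change 0.996 ± 0.10 (SE), adjusted p = 7.59e-08) and from 26.4, 24.2 and 24.7 CPM to 36.2, 34.5 and 33.1 CPM with Etv1 shRNA (0.47). Its difference (-0.53 ± 0.14, adjusted p = 0.0199) was lost without any of 4 libraries (up to 0.0732, without IL-4 replicate 1 of the control shRNA). Pnpla2 had 127, 128 and 127 CPM and 127, 134 and 125 CPM with Etv1 shRNA and was not called (0.02 ± 0.07, adjusted p = 0.86), a difference of -0.41 ± 0.09, adjusted p = 0.00602 from control shRNA.

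Several falls were smaller or not seen with Etv1 shRNA. Plin2 fell to 884, 740.3 and 788 CPM with control shRNA (log2 fold change -0.72 ± 0.11 (SE), adjusted p = 2.29e-05) and had 575, 626 and 619 CPM and 622, 589 and 647 CPM with Etv1 shRNA, all below every control shRNA library (log2 fold change 0.03 ± 0.11 (SE), adjusted p = 0.845; difference 0.75 ± 0.15, adjusted p = 0.00391). Cpt1a fell from 203, 248 and 214 CPM to 157, 163 and 146 CPM with control shRNA (log2 fold change -0.51 ± 0.07 (SE), adjusted p = 4.46e-06), and had 163, 165 and 161 CPM and 168, 149 and 167 CPM with Etv1 shRNA (difference 0.50 ± 0.10, adjusted p = 0.00293). Abhd5 fell from 121, 150 and 127 CPM to 52.8, 46.0 and 46.7 CPM (log2 fold change -1.46 ± 0.08 (SE), adjusted p = 1.2e-11) and, with Etv1 shRNA, from 84.2, 79.3 and 90.9 CPM to 45.1, 43.4 and 46.3 CPM (log2 fold change -0.92 ± 0.08 (SE), adjusted p = 2.4e-08; difference 0.54 ± 0.11, adjusted p = 0.00356). Acsl1 fell from 112, 126 and 114 CPM to 61.5, 43.5 and 51.8 CPM (log2 fold change -1.17 ± 0.12 (SE), adjusted p = 4.88e-07) and fell by 0.44 with Etv1 shRNA (difference 0.72 ± 0.17, adjusted p = 0.0118). For Cpt1a, Abhd5 and Acsl1 the levels with PGE2 were not called different between hairpins (0.06, -0.10 and -0.02), while under IL-4 alone all 3 were lower with Etv1 shRNA (-0.44, -0.65 and -0.75, each called).

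Under IL-4 with PGE2, all 5 enzymes of the later steps of a round were called higher with Etv1 shRNA. The call of Hadha could be lost by leaving out a single library. Hadha, Hadhb and Hadh were also called higher without stimulus and under IL-4 alone, and the PGE2 effect differed for 2 of the 5. The call of Hadh without stimulus was lost without unstimulated replicate 1 of the Etv1 shRNA (adjusted p = 0.0541). Those of Hadha (0.105) and Hadhb (0.142) under IL-4 were lost without IL-4 replicate 1 of that hairpin. Hadhb fell from 62.1, 54.1 and 66.7 CPM to 43.0, 39.6 and 40.8 CPM with control shRNA (log2 fold change -0.57 ± 0.09 (SE), adjusted p = 1.2e-05) and had 78.2, 65.3 and 71.9 CPM and 76.0, 68.4 and 79.4 CPM with Etv1 shRNA (difference 0.63 ± 0.12, adjusted p = 0.00168). Its neighbour Hadha was not called with either hairpin (0.03 and 0.03). Echs1 fell from 43.5, 41.2 and 47 CPM to 22.9, 24.2 and 20.8 CPM (log2 fold change -0.97 ± 0.08 (SE), adjusted p = 3.73e-09) and from 38.2–43.0 CPM to 28.3–33.95 CPM with Etv1 shRNA (-0.38; difference 0.59 ± 0.11, adjusted p = 0.00176). Decr1 fell by 0.56 with control shRNA (difference 0.50 ± 0.11, adjusted p = 0.00681). Etfb fell with both hairpins (-0.59 and -0.24), and its difference (0.34 ± 0.10, adjusted p = 0.0301) was lost without any of 6 libraries (up to 0.0949, without PGE2 replicate 3 of the Etv1 shRNA). Plin3 fell with control shRNA (-0.22) and was higher with Etv1 shRNA (0.15 ± 0.06, adjusted p = 0.0366), a rise lost without any of 5 libraries (up to 0.15, without IL-4 replicate 3).

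Hadh, Eci1, Acsl5 and Etfdh responded to PGE2 with both hairpins, and no difference in their effect was called. Hadh fell from 43.7–52.5 CPM to 26.4–31.4 CPM with control shRNA (log2 fold change -0.75 ± 0.08 (SE), adjusted p = 7.66e-08) and from 57.2–61.0 CPM to 39.9–43.8 CPM with Etv1 shRNA (log2 fold change -0.51 ± 0.07 (SE), adjusted p = 1.19e-05). Eci1 (-0.87 with control and -0.63 with Etv1 shRNA) and Acsl5 (-0.40 and -0.33) fell, and Etfdh rose by 0.48 and 0.56. Crat and Crot rose more with Etv1 shRNA. Crat rose by 0.15 with control shRNA, a call lost without any of 3 libraries (up to 0.119, without PGE2 replicate 3), and by 0.47 with Etv1 shRNA (difference 0.33 ± 0.08, adjusted p = 0.00761), and Crot by 0.17 and 0.54 (difference 0.37 ± 0.09, adjusted p = 0.0099). Acadl was not called with either hairpin, at 49.0–52.2 CPM against 51.4–67.1 CPM with control shRNA (adjusted p = 0.0609) and at 66.7–71.4 CPM against 70.7–75.8 CPM with Etv1 shRNA (0.488). The fall with control shRNA was called without IL-4 replicate 1 (0.0151) or IL-4 replicate 3 (0.0294) of that hairpin.

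**Figure D4:**
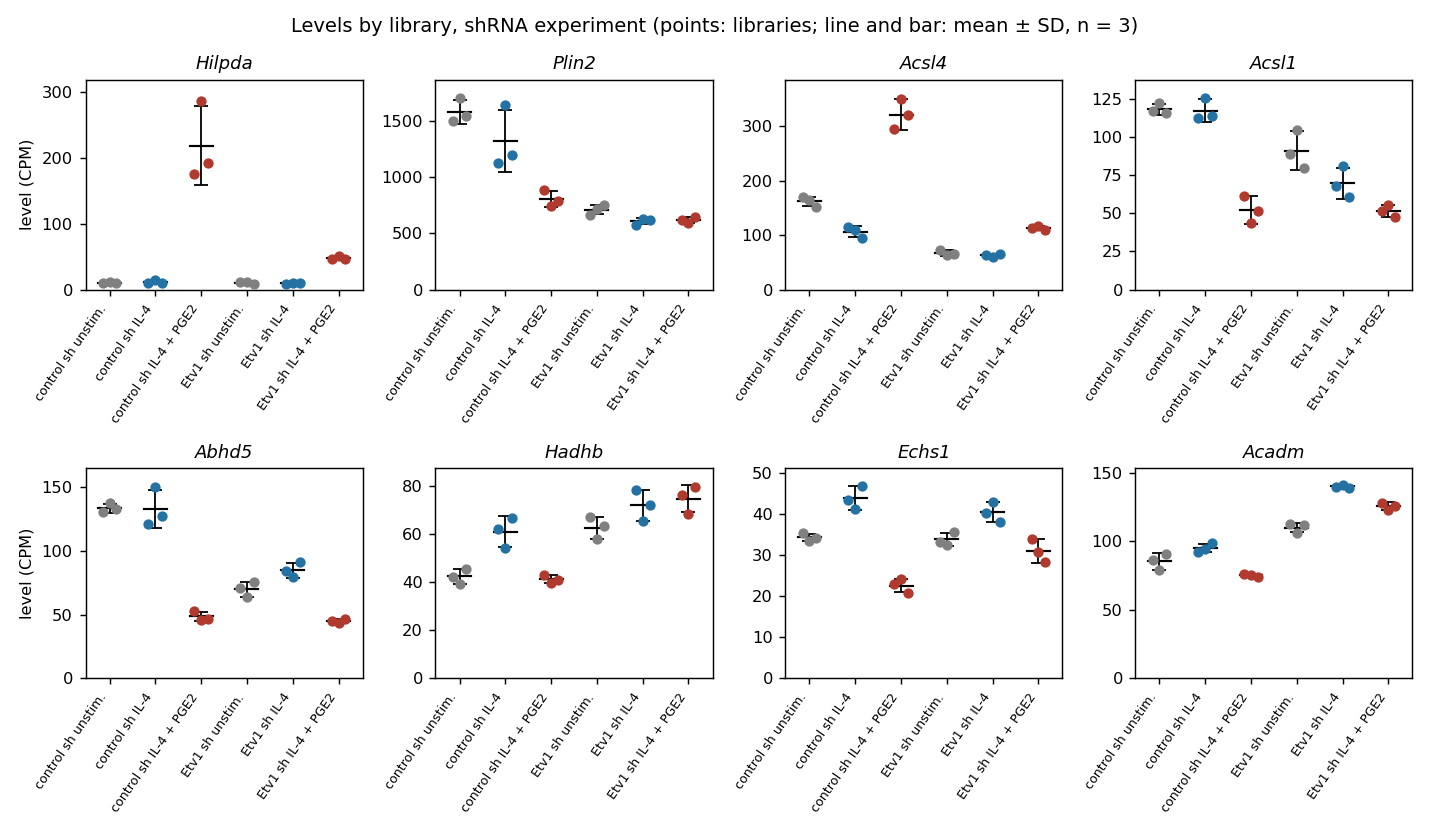
Level in CPM (vertical axes from 0) of 8 members in each library of the shRNA experiment, with the group mean ± SD (n = 3). With PGE2, Abhd5 and Acsl1 end at like levels in both hairpins, Hilpda and Acsl4 are higher with control shRNA, and Acadm and Hadhb are higher with Etv1 shRNA.

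Compared directly, the hairpins differed for most members in each condition. With Etv1 shRNA 14 members were higher and 9 lower without stimulus (69.7%, where 51.7% of genes were called, 24.9% higher and 26.8% lower). Under IL-4 13 were higher and 9 lower (66.7%, against 51% of genes, 25.4% higher and 25.6% lower). Under IL-4 with PGE2 17 were higher and 8 lower (75.8%, against 54.3% of genes, 27.6% higher and 26.7% lower). The median difference of the members was 0.14, 0.01 and 0.23 in turn, and that of all genes -0.01, 0.00 and 0.00. Higher in all 3 conditions were 10 members: the dehydrogenases Acadl, Acadm and Acads, the trifunctional subunits Hadha and Hadhb, Hadh, Cpt2, Eci2 and the peroxisomal Acaa1a and Hsd17b4. Of all 12382 genes tested, 15.4% were higher in all 3. Of the 10 members, Acaa1a, Acadm, Acads and Hsd17b4 were called in all 3 whichever single library was left out.

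Acadm, for one, had 86.3, 78.8 and 91.0 CPM without stimulus, 92.6, 94.7 and 98.6 CPM with IL-4 and 76.1, 75.5 and 73.8 CPM with PGE2 in control shRNA cells. With Etv1 shRNA it had 112, 106 and 112 CPM, 140.1, 141 and 139 CPM and 128, 123 and 126 CPM in the same order, above the control libraries in each condition (0.37, 0.56 and 0.75 ± 0.05, adjusted p = 6.16e-10). Acads was higher by 0.55, 0.44 and 0.59, Hsd17b4 by 0.41, 0.46 and 0.47, and Acadl by 0.24, 0.35 and 0.46. The call of Acadl without stimulus was lost without either of 2 libraries (up to 0.0659). Acaa1a has a near-identical relative, Acaa1b, and overlaps Myd88 on the opposite strand by 290 exon bases, so its counts are less certain.

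Lower with Etv1 shRNA in all 3 conditions were 4 members, Acsl4, Acsl5, Crat and Plin2, where 14.8% of all genes were. Plin2 had 666, 720.3 and 749 CPM without stimulus against 1497, 1705 and 1541 CPM with control shRNA, 2.22-fold lower (log2 fold change -1.15 ± 0.11 (SE), adjusted p = 1.74e-07), and stayed lower under IL-4 (-1.12 ± 0.11, adjusted p = 2.45e-07) and with PGE2 (-0.38 ± 0.11, adjusted p = 0.00742). Acsl4 had log2 differences of -1.27, -0.75 and -1.51 in turn, with 73.0, 63.5 and 65.3 CPM against 169.5, 164 and 152 CPM in unstimulated cells. Those of Acsl5 were -0.60, -0.56 and -0.48. Those of Crat were -0.35, -0.46 and -0.14, the last call lost without any of 3 libraries (up to 0.147, without PGE2 replicate 3 of the control shRNA). Pnpla2 was higher with Etv1 shRNA without stimulus (0.35 ± 0.07, adjusted p = 0.000194) and called lower with PGE2 (-0.19 ± 0.07, adjusted p = 0.0168), a call lost without any of 3 libraries (up to 0.0608). Hilpda was not called between hairpins without stimulus (0.00 ± 0.22, adjusted p = 0.995) or with IL-4 (-0.26 ± 0.23, adjusted p = 0.363) and was lower with Etv1 shRNA under PGE2 (-2.20 ± 0.16, adjusted p = 3.01e-08).

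A further 103 genes of fatty acid oxidation, triglyceride synthesis and their regulators, not among the 34, give the surroundings, and 79 of them were tested in each experiment. With IL-4 17 rose and 19 fell in wild type (45.6%, where 46.4% of all genes were called), 17 and 10 with control shRNA (34.2% against 34.3%), and 16 and 5 with Etv1 shRNA (26.6% against 18%). Auh, a hydratase of leucine breakdown, rose from 18.6–20.1 CPM to 54.3–57.7 CPM in wild type cells (log2 fold change 1.52 ± 0.07 (SE), adjusted p = 5.93e-15), the mitochondrial acetyl-CoA synthetase Acss1 from 25.8–26.8 CPM to 68.0–72.9 CPM (1.40 ± 0.07, adjusted p = 5.41e-14) and the coactivator Ppargc1b from 2.895–3.82 CPM to 11.2–14.8 CPM (1.98 ± 0.15, adjusted p = 8.67e-11). Lpin2, a phosphatidate phosphatase, fell by 1.16 and Acot1, an acyl-CoA thioesterase, fell by 1.60, while Abcd2, a peroxisomal importer, rose by 1.07. All 3 of Auh, Acss1 and Ppargc1b thus rose by more than any member did.

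With PGE2 26 of the 79 rose and 22 fell in wild type (60.8%, where 59.4% of all genes were called), 18 and 26 with control shRNA (55.7% against 59.4%), and 17 and 15 with Etv1 shRNA (40.5% against 47.5%). Dgat1, which makes triglyceride, rose from 15.8–18.6 CPM to 60.7–75.9 CPM in wild type (log2 fold change 2.02 ± 0.09 (SE), adjusted p = 1.69e-15), by 3.01 with control shRNA and by 1.92 with Etv1 shRNA. Gpat3, which takes the first step of glycerolipid synthesis, rose by 2.36, 3.25 and 1.99 in the same order. Pparg, the lipid-sensing nuclear receptor, fell from 80.2–87.7 CPM to 21.96–23.9 CPM in wild type (log2 fold change -1.83 ± 0.07 (SE), adjusted p = 1.16e-16), and so did Ppargc1b (-2.07), Abcd2 (-1.57) and the lipase inhibitor Angptl4 (-1.56). Lipoprotein lipase, Lpl, fell from 4032–4137 CPM to 546–594 CPM with control shRNA (log2 fold change -2.84 ± 0.07 (SE), adjusted p = 1.7e-16) and fell by 1.30 with Etv1 shRNA. The PGE2 effect differed between hairpins for 8 of the 79 (10.1%, near the 11.6% of all genes), among them Lpl (1.54 ± 0.10, adjusted p = 7.22e-09), Dgat1 (-1.09 ± 0.15, adjusted p = 0.000121), Dgat2 (-1.48 ± 0.27, adjusted p = 0.00124), Gpat3 (-1.26 ± 0.26, adjusted p = 0.00269) and Angptl4 (1.47 ± 0.32, adjusted p = 0.00446).

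With valinomycin 13 of the 79 rose and 20 fell (41.8%, where 38.4% of all genes were called). Ppard, another lipid-sensing receptor, rose from 16.6–24.2 CPM to 40.1–45.5 CPM (log2 fold change 1.07 ± 0.10 (SE), adjusted p = 6.1e-08), and Soat2, a cholesterol esterifying enzyme, from 1.48–1.57 CPM to 6.04–7.80 CPM (2.13 ± 0.22, adjusted p = 6.26e-08). Angptl4 fell by 1.16. G0s2, an inhibitor of Pnpla2, rose from 0.0797–0.523 CPM to 1.52–2.74 CPM (2.57 ± 0.39, adjusted p = 1.4e-05), at low levels throughout. Between PGE2 and valinomycin 34 of the 79 were higher with PGE2 and 21 lower (69.6% against 63.2%). Pparg was lower with PGE2, against 125–144 CPM under valinomycin (-2.55 ± 0.07, adjusted p = 1.23e-19). Between hairpins 26, 20 and 30 of the 79 were higher and 21, 17 and 15 lower with Etv1 shRNA in unstimulated, IL-4 and PGE2 conditions (59.5%, 46.8% and 57.0%, against 51.7%, 51% and 54.3% of all genes).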

How the data were processed

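The authors deposited 1 table of raw read counts per library, for 43629 mouse Ensembl gene IDs. Per the submitters' processing notes, STAR, featureCounts, DESeq2, deepTools and the GRCm38 build were named without versions. Per the labels' protocols, RNA was made into stranded mRNA libraries and sequenced on an Illumina HiSeq. Strand use in counting is not given in the sources used here.

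IDs were matched to GENCODE M21 symbols (42548 of 43629). Each experiment was fitted on its own with edgeR 4.0.16 in R 4.3.3: genes passing filterByExpr (12824 and 12382), TMM scaling, and the quasi-likelihood F test with robust dispersions, on all groups of the experiment. P-values were adjusted by Benjamini and Hochberg over all genes tested, and "called" means an adjusted p under 0.05. Differences between hairpins in a stimulus effect are interaction terms of that fit. CPM used TMM-scaled totals, and CPM per kilobase used the merged exon length. The scripts were tested on simulated counts. Alternatives were DESeq2 1.42.0, its size factors in edgeR, no filter or a stricter filter on low counts, only the groups compared, the replicate number as a block, and each library left out. The 34 members, the 103 surrounding genes and the marker lists were chosen with earlier results of these data known. Per-library values or ranges are given, though not in every contrast, for Cpt1a, Acadl, Plin2, Hilpda, Pnpla2 and Lipe. The same holds for up to 4 raised and 4 lowered members per contrast by adjusted p. A member without a value in a contrast is not thereby unchanged. Surrounding genes are named where called with a log2 change of at least 1, at most 6 per contrast. Upstream sequences are RefSeq's, GRCm38.p6, with 30 of 34 members matched.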

Additional observations from a re-analysis of the deposited data

Results flagged for a closer look

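A stimulus effect that differed between control shRNA and Etv1 shRNA, by the interaction term of the edgeR fit at an adjusted p under 0.05, marked 17 results. Each value is the log2 effect with Etv1 shRNA minus that with control shRNA, with n = 3 libraries in every group. No library was tested as an outlier, since groups of 3 are too small for that test.

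For the IL-4 effect the 1 such member was Acsl4 (0.52), which fell with control shRNA. For the PGE2 effect the droplet genes gave Hilpda (-1.94), Plin2 (0.75) and Plin3 (0.37), and the genes of lipolysis Abhd5 (0.54), Lipe (-0.53) and Pnpla2 (-0.41). The activating enzymes gave Acsl4 (-0.76) and Acsl1 (0.72), and the shuttle Cpt1a (0.50), Slc25a20 (-0.45), Crat (0.33) and Crot (0.37). The mitochondrial pathway beyond the shuttle gave Hadhb (0.63), Echs1 (0.59), Decr1 (0.50) and Etfb (0.34). Crat and Crot rose more with Etv1 shRNA, and Plin3 fell with control shRNA and was called higher with Etv1 shRNA. With each library left out in turn, the differences of Etfb (adjusted p up to 0.0949, without PGE2 replicate 3 of the Etv1 shRNA) and Lipe (up to 0.0732, without IL-4 replicate 1 of the control shRNA) were lost. The summed macrophage markers were lower with Etv1 shRNA in every condition, and their part in these differences was not tested.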

How the results depend on the processing

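No value called in the main fit or in an alternative reversed its direction, and the signs of values called in neither were not compared. Over 5760 values of the members and Etv1 recomputed under the alternatives, 5491 kept their side of the threshold, 201 lost a call and 68 gained one. Counts of called members moved by over 1.5 times in few places. The IL-4 effect with Etv1 shRNA gave 7 members, 4 without a filter on low counts and 4 with DESeq2. The difference of the IL-4 effect between hairpins gave 1 member, 3 with the replicate block and 2 with DESeq2. With each library left out in turn, the counts ran from 15 to 17 (IL-4, wild type), 24 to 27 (PGE2, wild type), 13 to 18 (valinomycin), 25 to 27 (PGE2 against valinomycin), 10 to 17 (IL-4, control shRNA), 22 to 26 (PGE2, control shRNA), 2 to 5 (IL-4, Etv1 shRNA) and 16 to 19 (PGE2, Etv1 shRNA). Between hairpins they ran from 18 to 22 without stimulus, 17 to 22 with IL-4 and 21 to 25 with PGE2, and for the difference of effects from 1 to 5 (IL-4; 5 without IL-4 replicate 2 of the control shRNA) and from 14 to 17 (PGE2). The cause of these moves was not tested. Replicate numbers are shared between groups, and libraries of the same number deviated together in 5 of 18 pairs of wild type libraries and 34 of 45 pairs of shRNA libraries (correlation over 0.1). Numbers were to be taken as pairing only if every pair passed 0.1, which neither experiment met, although the median correlation in the shRNA experiment was 0.153 for the same number and -0.089 for other numbers. The replicate block lost 0 of the calls and gained 15 among 446 values, among them PGE2 in wild type for Acaa1a (adjusted p = 0.0472), Decr1 (0.0293) and Eci2 (0.0393), valinomycin for Plin2 (0.039), and PGE2 with control shRNA for Acadl (0.0396). Over all genes it called 1997 differences of the PGE2 effect in place of 1438. With 3 libraries per group, small changes near the threshold depended on single libraries, and counts give Mgll no precision in the shRNA experiment.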
